A study of Homo sapiens with 6 samples.

Results

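The genes described here encode 10 enzymes that build purine and pyrimidine nucleotides, namely PPAT, GART, PFAS, PAICS, ADSL, ATIC, IMPDH2, GMPS, CAD and UMPS. They were taken by gene name from the 50868 genes of the deposited expression table, in which each name occurs as a single gene. PolyA RNA was sequenced from HCT116, an established line of human colon cancer cells, after transfection either with the empty vector pcDNA3.1(+) (pcCon, 3 samples) or with a vector that overexpresses the transcription factor YY2 (pcYY2, 3 samples). Both groups were otherwise the same HCT116 cells under transient transfection, and overexpression experiments were collected the day after it. Since no selection of transfected cells is described for these experiments, the share of cells that carried the vector is not known. Neither the labels nor the methods state whether the 3 samples of a group came from separate cultures, so the p values measure the spread between these samples, which may be technical.

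Cells make purines in a chain of reactions that assembles the ring on phosphoribosyl pyrophosphate (PRPP) and ends in inosine monophosphate (IMP), from which AMP and GMP branch off. PPAT starts this chain, and GART, PFAS, PAICS, ADSL and ATIC carry it on, several of them with more than a single activity in the same protein. IMPDH2 and GMPS turn IMP into GMP. Pyrimidines follow another order, in which the ring is built first by CAD and DHODH and then joined to PRPP and decarboxylated by UMPS. The chains draw on glutamine (PPAT, PFAS, GMPS, CAD), aspartate (PAICS, CAD), glycine and formyl groups carried by folate (GART, ATIC), and proliferating cells such as tumor cells rely on them for RNA and DNA.

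Between 15158360 and 29572882 reads were counted on genes per sample, and the 10 genes had between 1098 and 18695 reads each in every sample. The FPKM is the read count scaled to a fixed length per gene and to the total of the sample. For YY2 it was 2.16 ± 0.397 (SD, n = 3) in pcCon and 11.2 ± 0.333 in pcYY2. The labels and the measured YY2 level thus went together, although reads of the plasmid and of the YY2 gene cannot be told apart. Of 6 markers of colon epithelial cells, EPCAM, KRT8, KRT18, CDH1 and CDX2 were detected in every sample, while VIL1 had at most 2 reads. Of the 5 tested, KRT8 rose (log2 fold change 0.67, adjusted p = 0.0117 by edgeR, 0.0503 without pcCon sample 2), and the summed FPKM of the 6 was 196 to 204 in pcCon and 230 to 262 in pcYY2. The 8 markers of leukocytes, fibroblasts and endothelium summed to an FPKM of 2.41 to 2.65 in pcCon and 2.98 to 3.73 in pcYY2, most of it from COL1A1 (2.04 in pcCon and 2.49 in pcYY2), and COL1A2 and DCN had no reads. The part of these markers in the results for the enzymes was not tested. In bulk samples, fewer cells of a type and less RNA per cell cannot be told apart.

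Among the 10 enzymes, GART was lower and ADSL was higher in pcYY2 than in pcCon in edgeR's quasi-likelihood test, in which a gene passed with an adjusted p (Benjamini-Hochberg) up to 0.05, and the other 8 did not pass. The changes were small, with log2 fold changes (pcYY2 against pcCon) from -0.40 for GART to 0.30 for ADSL and a median of 0.023, beside a median of 0.002 over all 12015 genes tested. Of those 12015 genes, 9.37% passed the same threshold, 4.52% as higher and 4.85% as lower in pcYY2. With 1 enzyme called in each direction, the count is near this background and is not in itself a result about the enzymes. All 10 enzymes had been tested, as each had a mean FPKM above the minimum of 1. The FPKM of the groups did not overlap for 6 of the 10, with PFAS, ADSL and CAD higher and PPAT, GART and GMPS lower in pcYY2, where 35.8% of all tested genes did not overlap, 15.9% as higher and 19.9% as lower in pcYY2. Each of these 6 reached a p of 0.1 in a two-sided exact permutation test of its FPKM, the smallest p that 3 samples a group allow.

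**Figure D1:**
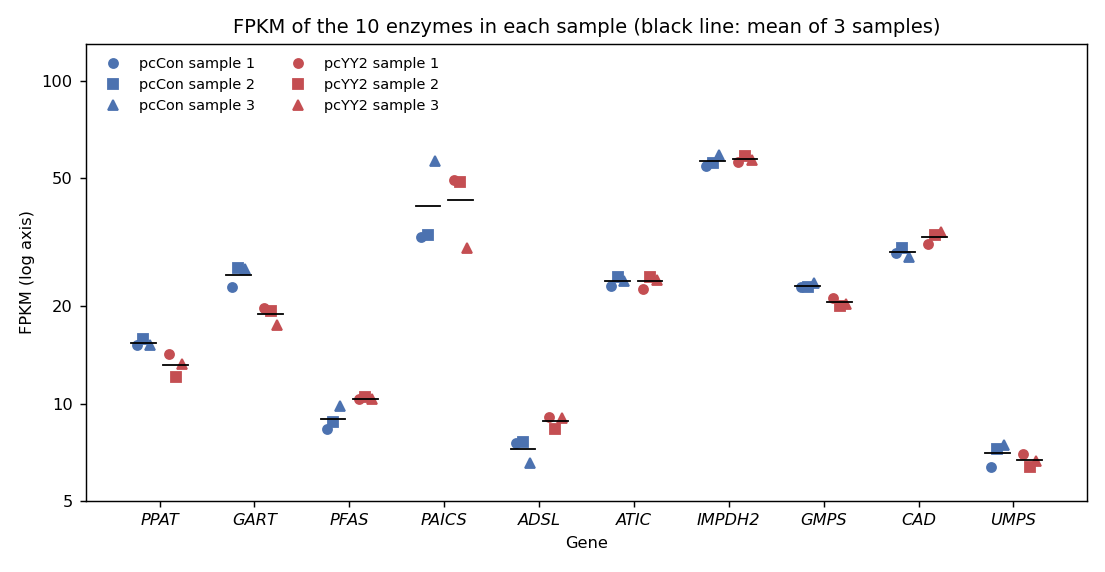
FPKM of each of the 10 enzymes (log axis) in the 3 pcCon samples (blue) and the 3 pcYY2 samples (red), with the sample number given by the marker and the group mean by a black line. GART lay between 23 and 26.3 in pcCon and between 17.5 and 19.8 in pcYY2, whereas PAICS spread from 30.3 to 56.4 within the groups.

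PPAT and PAICS lie head to head on chromosome 4 of GRCh38, PPAT on the minus strand from 56393362 to 56435615 and PAICS on the plus strand from 56435741 to 56464579. PPAT transfers the amide of glutamine to PRPP, the committed step of purine synthesis, and PAICS carries out the carboxylation and the addition of aspartate in the middle of the chain. The annotated ends leave 125 bases between the genes. They are shown here because the pair shares this stretch but differed in level and in spread. The sequence is from RefSeq (GRCh38.p14, chr4:56435616-56435740, plus strand) with a GC content of 76.0%, and capitals mark its 3 GC boxes (GGGCGG, searched on both strands), a motif added after the data were seen.
PPAT-PAICS: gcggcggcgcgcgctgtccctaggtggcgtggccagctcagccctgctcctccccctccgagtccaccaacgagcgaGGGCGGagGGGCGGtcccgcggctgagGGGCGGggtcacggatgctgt
A GC box was found in 7 of the 8 enzymes that have a RefSeq promoter window and in 45.0% of all 35116 RefSeq promoter windows, which run from 250 bases before to 50 bases after a start. The 8 enzymes have 12 windows, PAICS and GART several each, and an enzyme counts if any window matches. The share of all promoters is per window, so these numbers are not in like units.

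PPAT had an FPKM of 15.2, 15.8 and 15.2 in the pcCon samples 1 to 3 and of 14.2, 12.1 and 13.3 in the pcYY2 samples. Every pcYY2 value lay below every pcCon value. The log2 fold change was -0.21 (standard error, SE, 0.0671) with an adjusted p of 0.0943 in edgeR's test, and PPAT did not pass in any of the 13 alternative fits.

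PAICS had an FPKM of 32.9, 33.3 and 56.4 in pcCon and of 49.4, 48.5 and 30.3 in pcYY2. In each group the samples fell apart, since pcCon sample 3 and the pcYY2 samples 1 and 2 were high while the pcCon samples 1 and 2 and pcYY2 sample 3 were low. The log2 fold change was 0.08 (SE 0.264) with an adjusted p of 0.871. Without a single sample it ranged from -0.059 (without pcCon sample 1) to 0.38 (without pcCon sample 3), so its sign rested on which sample was included. The pooled SD of log2 CPM (counts scaled to the library) within the groups was 0.424 for PAICS, above that of 96.4% of the 10041 tested genes with at least 10 CPM, whose median was 0.0989. The other 9 enzymes had an SD of 0.101 or less. These values rested on 7253 to 18695 reads per sample. A processed pseudogene, PAICSP4, had 60 to 110 reads per sample, PAICSP1 had at most 1 read, and the other 5 annotated PAICS pseudogenes had none.

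The FPKM of PAICS was 2.16, 2.11 and 3.71 times that of PPAT in pcCon and 3.47, 4.03 and 2.27 times in pcYY2. The size of these ratios depends on the fixed lengths in the deposited FPKM, so only their differences between samples are compared. The log2 ratio was 1.36 ± 0.461 in pcCon and 1.66 ± 0.428 in pcYY2, and its difference of 0.30 was within the spread between samples (exact permutation p = 0.4, adjusted p = 0.84 over 6 ratios). The ratio varied by more within either group than between the group means. The ratio of ADSL to PAICS, which act in succession, likewise spread from 0.116 to 0.298, with a difference of 0.21 on the log2 scale (exact permutation p = 0.7, adjusted p = 0.84).

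**Figure D2:**
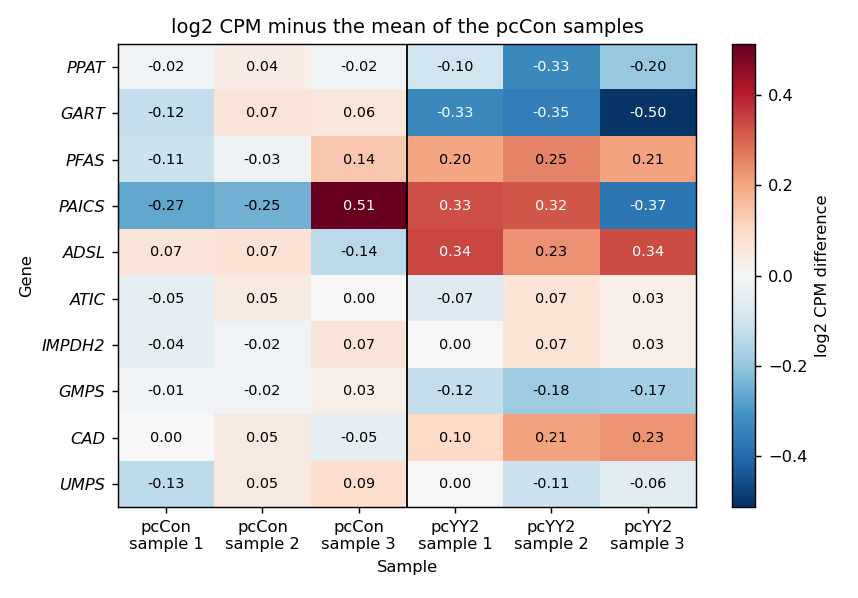
Each cell gives the log2 CPM of an enzyme (row) in a sample (column) minus the mean of the 3 pcCon samples, with red for higher and blue for lower values. PAICS has both high and low samples in each group. GART, PPAT and GMPS are lower and PFAS, ADSL and CAD higher in all 3 pcYY2 samples.

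GART (chromosome 21 from 33503931 to 33543491, minus strand) encodes a protein with several activities, which add glycine and a formyl group and close the first ring. Its FPKM was 23, 26.3 and 26.1 in pcCon and 19.8, 19.3 and 17.5 in pcYY2. The highest pcYY2 sample lay below the lowest pcCon sample. GART fell to 0.759-fold in edgeR's fit, which is -0.40 on the log2 scale (SE 0.0718, adjusted p = 0.0232). Among the 12015 tested genes, GART ranked 460 by p. The fall kept its direction in all 13 alternatives. Its adjusted p was above 0.05 without pcCon sample 2 (0.0828), pcCon sample 3 (0.0747), pcYY2 sample 2 (0.0529) or pcYY2 sample 3 (0.0664), with log2 fold changes from -0.42 to -0.34. SON, on the other strand, shares 874 bases with GART and had 5073 to 10628 reads per sample. As the strand setting of the counting is not given in the sources used here, reads from the shared end cannot be assigned with certainty. SON itself differed by 0.06 on the log2 scale (adjusted p = 0.361).

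A match to the core of the YY family motif (CCATNTT, searched on both strands) lay just after the upstream starts of GART, and it is shown because YY2 was the factor overexpressed. RefSeq lists GART starts at 33542892, 33542889 and 33542117, and the match begins 39 bases into the first and 36 into the second, counting the start as base 1. The window is chr21:33542843-33542872 of GRCh38.p14 on the minus strand, and capitals mark the motif.
GART: cgcgcacgactatgtccgCCATGTTagtgt
The motif was in 15.6% of all promoter windows. Of the 8 enzymes with a window, each counted over all its windows, GART and PAICS held it. In PAICS it lay 7 bases into a start farther upstream. The match describes the sequence, and binding was not analysed here.

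PFAS (chromosome 17 from 8247618 to 8270491) uses glutamine to convert the formylated intermediate. Its FPKM was 8.32, 8.80 and 9.85 in pcCon and 10.3, 10.5 and 10.3 in pcYY2. The pcYY2 samples were almost level and all above pcCon, with a log2 fold change of 0.22 (SE 0.0713) and an adjusted p of 0.099, which did not pass. CTC1 shares 427 bases with PFAS on the other strand and differed by 0.18 on the log2 scale (adjusted p = 0.191).

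ADSL (chromosome 22 from 40346500 to 40369367) releases fumarate both in the chain to IMP and in the branch to AMP. Its FPKM was 7.56, 7.60 and 6.54 in pcCon and 9.10, 8.36 and 9.03 in pcYY2, and the groups did not overlap. ADSL rose to 1.23-fold in edgeR's fit (0.30 on the log2 scale, SE 0.0734), and its adjusted p of 0.0498 lay just inside the threshold. The direction held in all 13 alternatives but the call held in 1 of them, DESeq2, and the adjusted p ranged from 0.0174 to 0.126. It exceeded 0.05 in each of the 6 fits that left out a sample, and without pcCon sample 3, the lowest of that group, the log2 fold change was 0.23. RP5-1042K10.14 shares 4410 bases with ADSL and had 1 to 9 reads per sample. Just outside the threshold lay GMPS (adjusted p = 0.0605) and CAD (0.0634).

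ATIC (chromosome 2 from 215311817 to 215349773) adds the last formyl group and closes the second ring. Its FPKM was 23.1, 24.7 and 23.9 in pcCon and 22.7, 24.7 and 24.2 in pcYY2, which overlapped throughout. The log2 fold change was 0.014 (SE 0.0547, adjusted p = 0.894). GART, the other enzyme that takes a formyl group from folate, was called lower, but whether the changes of ATIC and GART differ from each other was not tested.

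An E-box (CACGTG), the sequence bound by MYC and related factors, was found near the starts of ATIC, PPAT and PAICS, which are 3 of the 8 enzymes with a window, and in 7.26% of all windows. Here too the first count is by enzyme and the share is by window. For PPAT and PAICS it is a single site, 41 bases into PAICS and 182 bases before the start of PPAT. These stretches are shown because the 3 enzymes hold the same motif but differed in their values, and capitals mark the E-box (PAICS at chr4:56435772-56435801 and ATIC at chr2:215312001-215312030, both plus strand of GRCh38.p14).
PAICS: ctggaaagctgtatttgctgCACGTGgaaa
ATIC: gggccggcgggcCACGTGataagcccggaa
In ATIC the motif begins 46 bases before the start, with another copy 30 bases into the transcript. Elements bound by ATF4 (TGATGNAA, 3.62% of all windows) and by NRF1 (its palindromic element, 1.24%) were not in these 12 windows. Windows of ADSL and IMPDH2 were not used here.

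The GMP branch differed little between groups. IMPDH2 (chromosome 3 from 49024325 to 49029408), which oxidizes IMP and limits the rate of GMP synthesis, had the highest mean FPKM of the 10. The length that its FPKM and reads imply is longer than its whole locus, so FPKM ranks different genes only roughly. In reads, PAICS was above IMPDH2 in every sample except pcYY2 sample 3 (7253 against 7616). The FPKM of IMPDH2 was 54.6, 55.7 and 58.9 in pcCon and 56.0, 58.3 and 57.0 in pcYY2. The groups overlapped, with a log2 fold change of 0.033 (SE 0.0439, adjusted p = 0.664). Its paralog IMPDH1 was lower in level (7.85 ± 0.516 in pcCon and 7.77 ± 0.169 in pcYY2), and the log2 ratio of IMPDH2 to IMPDH1 was 2.85 ± 0.148 in pcCon and 2.88 ± 0.048 in pcYY2 (exact permutation p = 0.7).

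GMPS (chromosome 3 from 155870536 to 155944026), which aminates XMP to GMP with glutamine, had an FPKM of 23, 23 and 23.7 in pcCon and of 21.2, 20.1 and 20.4 in pcYY2. It had the smallest spread within groups of the 10 enzymes, and every pcYY2 value was below pcCon. The log2 fold change was -0.16 (SE 0.0427) with an adjusted p of 0.0605, and the threshold was passed in 1 of 13 alternatives, upper quartile scaling (0.0468). Its pseudogene GMPSP1 had 32 to 52 reads per sample.

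CAD and UMPS begin and end the pyrimidine chain. CAD (chromosome 2 from 27217390 to 27243943) holds carbamoyl phosphate synthetase, aspartate transcarbamylase and dihydroorotase in a single protein. Its FPKM was 29.3, 30.4 and 28.4 in pcCon and 31.3, 33.4 and 34.1 in pcYY2, without overlap. The log2 fold change was 0.18 (SE 0.0491, adjusted p = 0.0634), and among the 13 alternatives it passed in 1, without pcYY2 sample 1 (0.22, adjusted p = 0.0445).

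UMPS (chromosome 3 from 124730366 to 124749273) had an FPKM of 6.38, 7.23 and 7.42 in pcCon and of 6.97, 6.38 and 6.66 in pcYY2. The values overlapped, and the log2 fold change of -0.058 (SE 0.072) had an adjusted p of 0.633. Without a single sample it lay between -0.13 (without pcCon sample 1) and -0.015 (without pcCon sample 3). The log2 ratio of CAD to UMPS was 2.07 ± 0.132 in pcCon and 2.30 ± 0.119 in pcYY2, a difference of 0.24 (exact permutation p = 0.2, adjusted p = 0.84). DHODH, the mitochondrial enzyme between them, had mean FPKM values of 2.23 and 1.87 (log2 fold change -0.24, adjusted p = 0.265), and its change was -0.13 without pcCon sample 3 and -0.15 without pcYY2 sample 3.

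**Figure D3:**
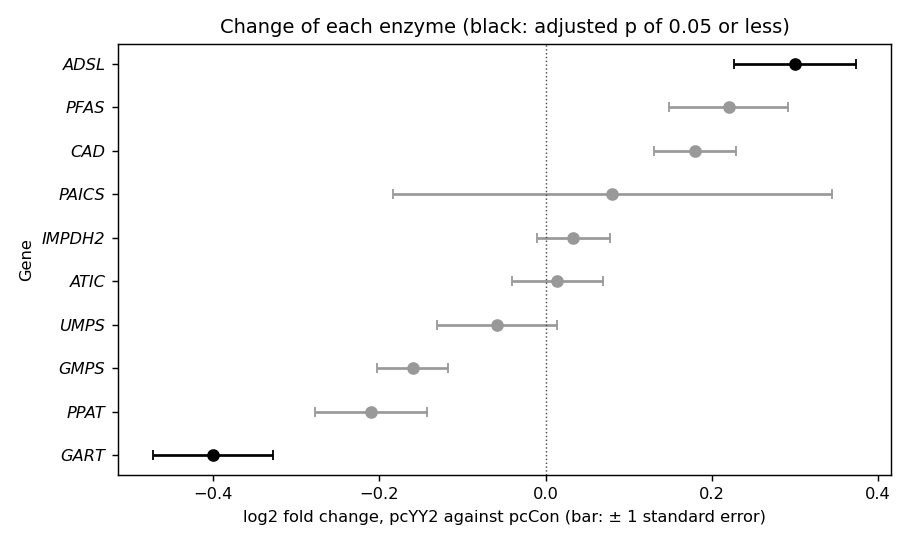
Log2 fold change of each enzyme, pcYY2 against pcCon, from edgeR's fit over all tested genes, with bars of 1 standard error, ordered from the highest to the lowest value. GART (-0.40) and ADSL (0.30), in black, passed the threshold, and the bar of PAICS (SE 0.264) is the widest.

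Ordered by mean FPKM over all 6 samples, the levels ran from IMPDH2 (56.7) through PAICS (41.8), CAD (31.1), ATIC (23.9), GART (22), GMPS (21.9), PPAT (14.3), PFAS (9.67) and ADSL (8.03) to UMPS (6.84). This order depends on the fixed length per gene in the deposited FPKM and ranks the levels only roughly. ATIC, GART and GMPS were neighbours whose ranges over the 6 samples overlapped, and the range of PAICS reached those of both CAD and IMPDH2. The ranges of PFAS and ADSL also overlapped, as did those of ADSL and UMPS. The summed FPKM of the 6 enzymes from PPAT to ATIC was 122 ± 14.6 in pcCon and 118 ± 11.5 in pcYY2, and without PAICS it was 80.7 ± 3.09 and 75.2 ± 0.881. For CAD and UMPS together it was 36.4 ± 1.05 and 39.6 ± 1.25, and for IMPDH2 and GMPS 79.6 ± 2.62 and 77.7 ± 0.656. These sums depend on the same lengths, describe the levels only roughly and were not tested.

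The supply of PRPP and the remaining steps to AMP and GMP were examined with a list of 12 gene names. These matched 11 genes of the expression table, of which 10 were tested. In edgeR's test 0 of the 10 were called, 1 had an unadjusted p under 0.05 (28.9% of all tested genes did), and DESeq2 and limma called 0 as well. PRPS1, a PRPP synthetase, stood at 21.8 ± 0.673 FPKM in pcCon and at 24.4 ± 0.947 in pcYY2 (log2 fold change 0.18, adjusted p = 0.0807), and PRPSAP2, which binds these synthetases, had 3.63 and 4.14 (adjusted p = 0.211). The paralog PRPS2 had 12.0, 11.3 and 20.2 in pcCon and 19.7, 9.07 and 9.65 in pcYY2 (log2 fold change -0.17, SE 0.352, adjusted p = 0.792). As with PAICS, pcCon sample 3 and pcYY2 sample 1 were high, but pcYY2 sample 2 was low for PRPS2 and high for PAICS. The log2 ratio of PRPS1 to PRPS2 was 0.64 ± 0.422 in pcCon and 1.03 ± 0.65 in pcYY2 (exact permutation p = 0.5).

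Of 12 genes for purine salvage and breakdown, all 12 were tested and 1 was called. This count is near the 9.37% called over all tested genes and is not in itself a result about the list. HPRT1, which recovers hypoxanthine and guanine, rose from an FPKM of 34.0, 36.3 and 35.1 in pcCon to 41.8, 40.7 and 46.7 in pcYY2 (log2 fold change 0.31, SE 0.0673, adjusted p = 0.0372 by edgeR). Its call was lost in each of the 6 fits without a sample, with log2 fold changes from 0.25 to 0.34 and adjusted p values up to 0.11. The median log2 fold change of this list was -0.0025.

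Of 21 genes for pyrimidine nucleotides and deoxynucleotides, all tested, 3 were called and all 3 were higher in pcYY2. Over all tested genes, 4.52% were called higher, and this list too was chosen with earlier results of these data known. The 3 were the ribonucleotide reductase subunits RRM1 and RRM2 and the thymidylate kinase DTYMK. RRM2 had an FPKM of 33.1, 32.3 and 35.0 in pcCon and of 42.2, 45.0 and 43.0 in pcYY2 (log2 fold change 0.39, SE 0.049, adjusted p = 0.00834 by edgeR). RRM1 had 28.9, 28.0 and 28.9 in pcCon and 34.3, 34.6 and 34.0 in pcYY2 (0.28, SE 0.039, adjusted p = 0.0116). In neither gene did the groups overlap. DTYMK rose by 0.26 on the log2 scale (adjusted p = 0.0473), and its call was lost in 9 of 13 alternatives, among them each fit without a sample except that without pcYY2 sample 1 (adjusted p up to 0.138). RRM1 lost its call without pcCon sample 2 (0.26, adjusted p = 0.0578), and RRM2 kept its call in each of these 6 fits. The median of this list was 0.11. CTPS1, which makes CTP, differed by 0.10 on the log2 scale (adjusted p = 0.232), and its ratio to CTPS2 was 1.88 on the log2 scale in both groups (exact permutation p = 0.9).

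In the supply of formyl groups, serine and amino donors, 5 of 14 tested genes of a list of 16 were called, and all 5 were lower in pcYY2. Over all tested genes, 4.85% were called lower. As the list was chosen with earlier results of these data known, this contrast is a description only. The median log2 fold change of this list was -0.22. MTHFD1L, which releases formate from the mitochondrion, fell from an FPKM of 17.0, 17.0 and 16.7 to 11.1, 12.8 and 12.1 (log2 fold change -0.48, SE 0.0653, adjusted p = 0.0102 by edgeR). MTHFD2, the mitochondrial enzyme before it, fell from 51.6, 40.4 and 41.9 to 32.6, 30.8 and 35.1 (-0.43, adjusted p = 0.043), and its call was lost in each of the 6 fits without a sample (adjusted p up to 0.11). The others were PHGDH (-1.19) and PSAT1 (-0.80) of serine synthesis and ASNS (-1.73), which spends aspartate and glutamine, and these 3 kept their calls in all 13 alternatives. The cytosolic enzyme MTHFD1, which makes the formyl donor, differed by 0.048 on the log2 scale (adjusted p = 0.452) and did not pass.

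**Figure D4:**
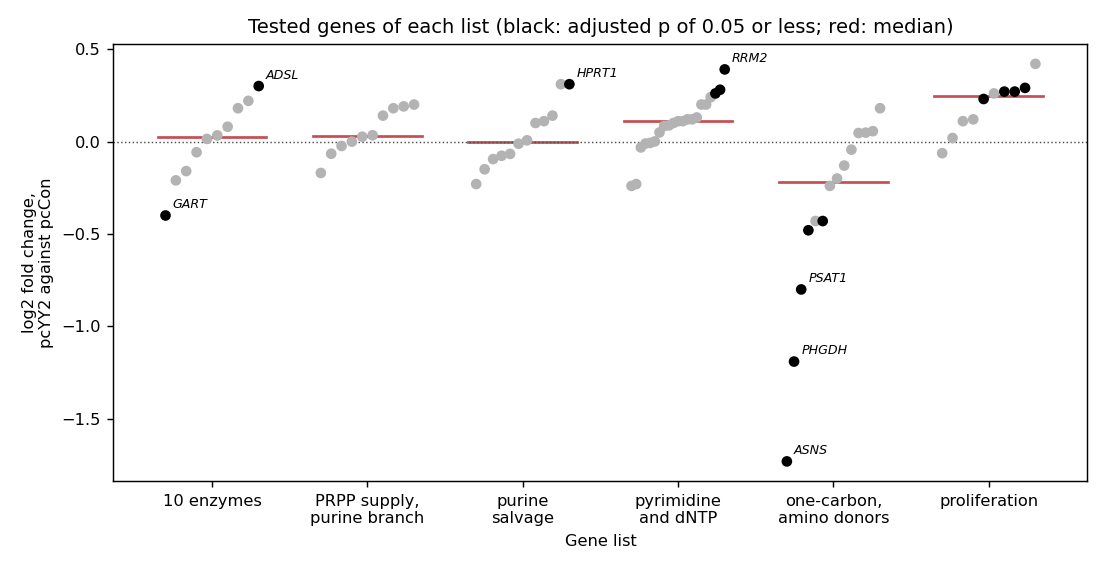
Log2 fold change (pcYY2 against pcCon) of the tested genes of each list, ordered within a list, with called genes in black, others in grey and the median in red. The 10 enzymes lie between -0.40 and 0.30 around a median of 0.023, while the list for one-carbon and amino donor supply reaches down to ASNS at -1.73.

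Of 6 possible regulators, 5 were tested and edgeR called 0, with 3 at an unadjusted p under 0.05 where 28.9% of all tested genes were, while DESeq2 called 0 and limma 1, E2F1 (adjusted p = 0.0416). In edgeR's test E2F1, which drives genes of DNA synthesis, had a log2 fold change of -0.23 with FPKM means of 17.1 and 14.5 (adjusted p = 0.0703), and ATF4 had 121 and 109 (-0.14, adjusted p = 0.125). MYC was under the filter, with 0.582 to 1.16 in pcCon and 0.643 to 0.675 in pcYY2. MYC is usually well expressed in this cell line, and the settings of the counting are not given in the sources used here. The length that its FPKM and reads imply was also longer than its locus. Its level in this table is therefore uncertain. Among 10 proliferation genes, MKI67, MCM7, TOP2A and CCNB1 were called higher, beside 4.52% of all tested genes. Their log2 fold changes were 0.23 to 0.29, and the list median was 0.24. These 4 calls were lost in 2 to 4 of the 6 fits without a sample, namely in fits without a pcCon sample or without pcYY2 sample 3, with adjusted p values from 0.0504 to 0.0809. The part of proliferation in the values of the enzymes was not tested.

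The genes whose log2 CPM followed the mean profile of the 10 enzymes most closely over the 6 samples were G3BP2 (Pearson's r = 0.983), CEP57 (0.976), NIT1 (0.974), STOX2 (0.973) and MTFR1L (0.971). The mean profile was lowest in pcCon sample 1 (-0.070) and highest in pcCon sample 3 (0.068). The log2 fold changes of these 5 genes lay between -0.02 and 0.04. The profile averages centred values without scaling them. PAICS, with a pooled SD of 0.424 within groups against 0.101 or less for the other enzymes, therefore weighs most in it. With 6 samples that share their libraries, this is a description only.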

How the data were processed

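RNA-Seq of 3 pcCon and 3 pcYY2 samples was analysed from the gene table deposited by the authors. According to the methods, the authors filtered reads and mapped them to GRCh38 with TopHat; HTSeq is named in the submitters' processing notes, without a version. The deposited counts are whole reads per gene without normalization. The deposited FPKM equalled the count over a fixed length per gene and the total count, with a deviation of at most 0.000553% over 10859 genes with at least 100 counts. For some genes, among them IMPDH2 and MYC, the length so implied was longer than the whole locus. FPKM therefore compares levels of different genes only roughly, while the ratio of a gene between samples does not depend on this length. Cuffdiff, used by the authors, needs reads and was not run.

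Genes whose mean FPKM reached 1 were tested with edgeR 4.0.16 (R 4.3.3, TMM, quasi-likelihood test), and an adjusted p of 0.05 or less was a call. The standard error is the log2 fold change over the square root of F. FPKM is mean ± SD, n = 3. Alternatives were lower or no filters, upper quartile scaling, DESeq2 1.42.0, limma 3.58.1 on log2(FPKM + 1) or log2(FPKM + 0.1), the replicate number as a block, and leaving out each sample. The reported edgeR fit, DESeq2 and limma were tested on simulated data, limma there on log2 CPM rather than FPKM. The other alternatives were not tested in this way. No 2 samples were as alike as counting error alone would make them.

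All 10 enzymes are named. From the lists, called genes, otherwise the 2 with the smallest p, and the partners of ratios are named, as are the 5 genes most like the enzymes; CTPS1, DHODH, MYC, MTHFD1, the markers and the genes overlapping an enzyme were also named after their values were seen. Enzymes and lists were chosen with earlier results of these data known, so the share of a list that was called only describes that list. Gene descriptions use GENCODE 44, and promoter sequences are from RefSeq.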

Additional observations from a re-analysis of the deposited data

How the results depend on the processing

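All 10 enzymes kept the direction of their change under the other tools, scalings and filters except ATIC, whose change near 0 turned to -0.0044 with upper quartile scaling and to -0.0014 in both limma fits. Over the fits without a sample, log2 fold changes ranged from -0.46 to -0.34 for GART, 0.23 to 0.34 for ADSL, -0.059 to 0.38 for PAICS, -0.016 to 0.053 for ATIC, 0.16 to 0.22 for CAD, -0.13 to -0.015 for UMPS, 0.0067 to 0.066 for IMPDH2, -0.26 to -0.15 for PPAT, 0.16 to 0.29 for PFAS and -0.18 to -0.14 for GMPS, and PAICS and ATIC changed sign in some of them. For PRPS2 the same range was -0.61 to 0.15. IMPDH1, near 0 throughout, ranged from -0.051 to 0.038 and was at 0.022 with the filter at 0.1, 0.014 with no filter and 0.0011 with the replicate block. For GART, the call was lost with the replicate block (-0.40, adjusted p = 0.0815). For ADSL it was lost with a filter at a mean FPKM of 0.1 (0.32), no filter (0.31), upper quartile scaling (0.28), limma (0.26 with 1 and 0.29 with 0.1 added to FPKM) and the replicate block (0.30). GMPS passed with upper quartile scaling (-0.18), so that 2 enzymes were then called lower. The number called higher fell from 1 to 0 in these fits, where 3 were higher at an unadjusted p under 0.05 in each (in the reported fit 6 of 10 were under it in either direction, beside 28.9% of all tested genes), and with the block 0 were called in either direction. Without a sample, 0 to 1 enzymes were called in each direction.

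With the replicate block, 51 genes were higher and 50 lower over all genes, against 543 and 583 without it. Of the 4 pathway lists, 0 genes were higher and 3 lower with the block, against 4 and 5. At an unadjusted p under 0.05, 9 list genes were higher and 9 lower with the block, against 7 and 10 without it. Over all tested genes, 28.9% were under it without the block. The calls lost with the block were those of RRM2 (adjusted p = 0.0574), RRM1 (0.0655), DTYMK (0.107), HPRT1 (0.0936), MTHFD1L (0.0566) and MTHFD2 (0.0828) in these lists, and MKI67 (0.0821), MCM7 (0.0566), TOP2A (0.0576), CCNB1 (0.0655) and KRT8 (0.0576) outside them. Deviations from the group means correlated at -0.0318 to -0.0175 between samples of the same number, and 0 of 3 pcCon samples were closest to their own. With 3 samples a group, such correlations cannot decide whether samples of a number shared a culture or batch, which the labels do not state. Without a sample, 138 to 412 genes were higher and 147 to 393 lower, and 1 to 3 pathway genes were higher and 4 to 5 lower. All 6 ratios kept their direction with 0.1 added to FPKM. The causes were not tested. Each enzyme had over 1000 reads in every sample, whereas MYC and most markers of other cells were too low to be tested.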
